A study of Mus musculus with 6 samples.

Results

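Lymphatic endothelial genes were examined in irradiated dorsal skin of Cbl-b-/- and WT mice, together with Mmrn1. The set holds 9 genes, Prox1, Foxc2, Flt4, Vegfc, Lyve1, Stab2, Pdpn, Reln and Mmrn1, and all 9 have a row of their own on the array, out of 19938 gene symbols that a row carries alone. A member is the row that carries its symbol and no other, and each of the 9 has 1 such row. The set was chosen by lymphatic function together with the known genotype difference of Prox1, Flt4 and Mmrn1 on these arrays, so the values of the 9 genes are given as a description, with no test. Skin was taken 24 h after a single UVB dose of 80 mJ/cm2 from 3 Cbl-b-/- mice, which lack the E3 ubiquitin ligase Cbl-b, and 3 WT mice, with 1 Affymetrix Mouse Gene 1.0 ST array per mouse. The labels give the animals as matched for sex and age, and the study's methods describe them as BL6 mice, shaved 1 day before the procedure, and name no substrain. Nonirradiated skin was not analysed here. Values are log2 expression after robust multichip average (RMA) normalization, so that 1 unit is a 2-fold difference. Whole skin was measured, and a different number of lymphatic cells and a different amount of RNA per lymphatic cell cannot be told apart.

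Lymphatic capillaries drain fluid and carry leukocytes from the skin to the lymph nodes. Their endothelium takes its identity from the transcription factor PROX1, which is induced in embryonic veins by SOX18 and COUP-TFII (Nr2f2) and has to be kept on in the adult. PROX1 maintains VEGFR-3, the product of Flt4, and VEGFR-3 receives the growth factor VEGF-C, which is secreted by other cells of the tissue. In skin, UVB is known to make lymphatic vessels dilate and leak.

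Cblb itself, the targeted gene, measured 8.61, 8.69 and 8.61 in Cbl-b-/- and 9.90, 9.66 and 9.72 in WT skin, with no overlap. The medians of the 6 arrays lay between 6.30 and 6.34, and Pearson correlations between arrays, taken across all 35556 rows (transcript clusters), lay between 0.980 and 0.993. As a background reference, the 95th percentile of 1035 rows of smell receptor genes, which skin should lack, was taken in each array and averaged 5.43. The Cblb row thus kept signal well above background in Cbl-b-/- skin, with a mean of 8.64 and a log2 difference of −1.12 from WT. The source of that signal was not tested. WT replicate 3 stood apart in its hair follicle genes, whose median level was 8.99 against 5.41 to 7.06 in the other arrays. Cbl-b-/- replicate 2 stood apart in fat and muscle genes, with a median level of 7.51 for adipocyte markers against 8.93 and 8.94 in the other Cbl-b-/- arrays, and of 9.44 for skeletal muscle markers against 10.62 and 10.51. The lymphatic markers Prox1, Flt4, Lyve1 and Pdpn lay above the background reference in all groups. A limma fit of Cbl-b-/- minus WT gave each difference and its standard error (SE), and a row is said to meet the study's thresholds at an unadjusted p under 0.05 and at least a 1.5-fold difference (0.58 on the log2 scale).

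Prox1, the master transcription factor of lymphatic endothelium, measured 6.12, 6.10 and 6.44 in the Cbl-b-/- arrays and 5.65, 5.62 and 5.57 in the WT arrays. Every Cbl-b-/- array lay above every WT array, and Cbl-b-/- replicate 3 was the highest. The group means were 6.22 ± 0.19 (SD, n = 3) and 5.61 ± 0.04 (SD, n = 3), a log2 difference of 0.61 (SE 0.11), or 1.52-fold. The WT mean was only 0.23 above the background reference of its arrays. Foxc2, a forkhead factor needed for lymphatic valves, measured 6.61, 6.27 and 6.61 in Cbl-b-/- and 6.22, 6.42 and 6.42 in WT skin. Its groups overlapped, with a log2 difference of 0.14 (SE 0.12).

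Flt4, the receptor for VEGF-C, measured 6.87, 6.91 and 6.83 in the Cbl-b-/- arrays and 6.41, 6.19 and 6.17 in the WT arrays. The groups did not overlap, and the Cbl-b-/- arrays lay within 0.04 (SD, n = 3) of their mean of 6.87. The log2 difference was 0.62 (SE 0.09), or 1.53-fold. Vegfc, the ligand, measured 5.86, 6.02 and 6.04 in Cbl-b-/- and 5.68, 5.73 and 5.53 in WT skin. Its groups did not overlap either, but the log2 difference was smaller, at 0.33 (SE 0.09) or 1.25-fold, and both group means lay within 0.50 of the background reference. Vegfc therefore stayed under the fold threshold, while its receptor passed it by a small margin.

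Lyve1, the hyaluronan receptor of lymphatic capillaries, which some skin macrophages also carry, measured 9.09, 9.72 and 9.46 in Cbl-b-/- and 9.54, 8.98 and 8.49 in WT skin. The groups overlapped, since WT replicate 1 lay above 2 of the Cbl-b-/- arrays. The log2 difference was 0.42 (SE 0.29), and the WT arrays alone spread by 0.53 (SD, n = 3). Stab2, a scavenger receptor of sinusoidal endothelium that also binds hyaluronan, ran from 5.50 to 5.67 over the 6 arrays, at most 0.19 above the background reference in its group means. Its log2 difference was 0.02 (SE 0.08).

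Pdpn encodes podoplanin, a membrane mucin of lymphatic endothelium that activated keratinocytes and fibroblasts also make. It measured 10.41, 10.80 and 9.91 in Cbl-b-/- and 10.57, 10.85 and 10.65 in WT skin. The groups overlapped, and the lowest value came from Cbl-b-/- replicate 3, the array with the highest Prox1. The log2 difference of Pdpn was −0.32 (SE 0.22), and −0.08 (SE 0.16) without that array. Reln, the secreted glycoprotein reelin, which lymphatic endothelium releases, measured 7.29, 7.63 and 7.34 in Cbl-b-/- and 7.47, 7.31 and 6.80 in WT skin. Its groups overlapped as well, with a log2 difference of 0.23 (SE 0.19).

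Mmrn1 encodes multimerin 1, a large secreted protein stored in platelets and endothelial cells, and within tissues it serves as a lymphatic endothelial marker. It measured 3.64, 3.91 and 3.78 in the Cbl-b-/- arrays and 7.14, 6.87 and 5.99 in the WT arrays. All 3 Cbl-b-/- values lay below the background reference of their arrays, which averaged 5.48, and among smell receptor rows 44.9% were at or above the Cbl-b-/- mean of 3.78. The 3 WT values lay above the reference, with a mean of 6.67 ± 0.60 (SD, n = 3). The measured log2 difference was −2.89 (SE 0.29), or 7.40-fold, the largest of the 9 genes. With Cbl-b-/- skin at background, the size of the difference can only be given as a lower bound. The WT mean stood 2.28-fold above the reference level of the Cbl-b-/- arrays, and so at least that far above Cbl-b-/- skin.

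**Figure D1:**
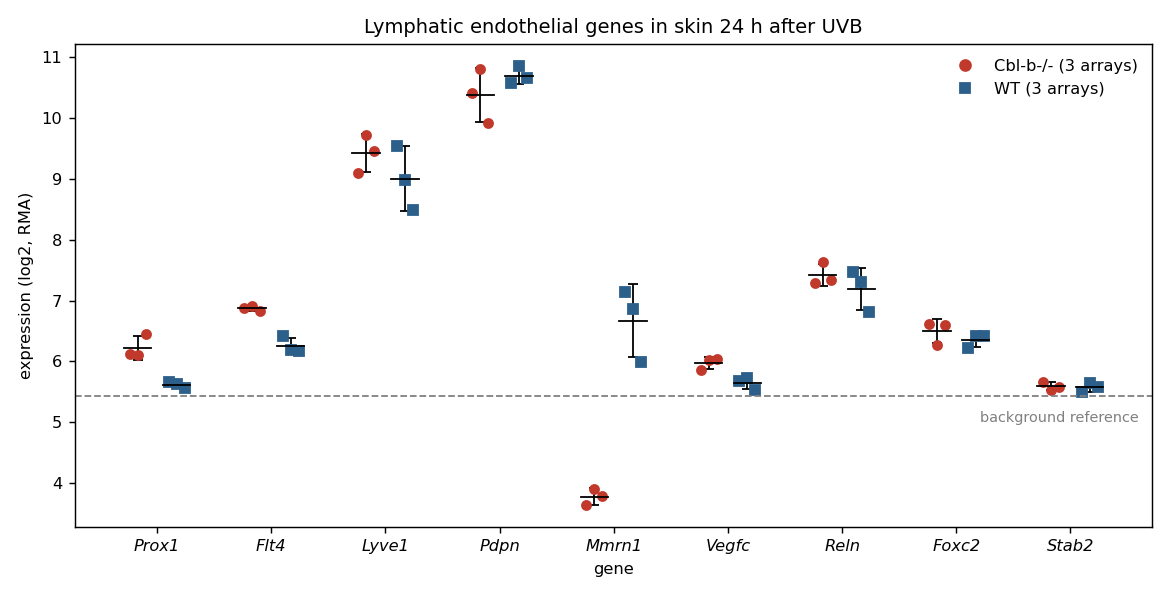
Log2 expression (vertical axis) of the 9 genes (horizontal axis) in single arrays of Cbl-b-/- (circles) and WT (squares) skin, with the mean and SD of 3 arrays as bars; replicates 1 to 3 run from left to right, and the dashed line is the background reference of 5.43. The genotypes are apart in Prox1, Flt4 and Vegfc (Cbl-b-/- higher) and in Mmrn1 (Cbl-b-/- lower), and they overlap in the other 5 genes.

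Of the 9 genes, 3 met the study's thresholds, Prox1 and Flt4 as higher and Mmrn1 as lower in Cbl-b-/- skin. Over all 35556 rows the share was 1.22%, with 0.276% higher and 0.945% lower, and over rows with 1 gene symbol it was 0.496%. With the methods' test the same 3 genes met them, beside 0.751% of all rows. An unadjusted p under 0.05 was reached by 6.55% of all rows and by 4 of the 9 genes, Vegfc being the fourth. The groups did not overlap in 4 of the 9 (3 higher, 1 lower), against 13.5% of all rows (8.66% higher, 4.89% lower). These genes were picked with the same contrast in view, so nothing is read from these counts. After Benjamini-Hochberg adjustment over all rows at 0.05, 1 row passed in limma (0.00281%), and it was none of the 9.

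The differences of Prox1 and Flt4 sat close to the 1.5-fold threshold. Without WT replicate 3, which carried the highest hair follicle level, Prox1 stood at 0.58 (SE 0.13) and Flt4 at 0.57 (SE 0.10), both just under it. Without Cbl-b-/- replicate 3, Prox1 stood at 0.50 (SE 0.08), and after cyclic loess between arrays at 0.56 (SE 0.12). Without Cbl-b-/- replicate 2, which carried the lowest adipocyte and muscle levels, Prox1 stood at 0.67 (SE 0.12), Flt4 at 0.60 (SE 0.11) and Mmrn1 at −2.96 (SE 0.34). The same 3 of the 9 genes met the thresholds in that fit, while the count over all rows went from 434 to 790. Flt4 ran from 0.57 to 0.69 and Mmrn1 from −3.23 to −2.65 across the fits that left out 1 array. Lyve1 ran from 0.16 without WT replicate 3 to 0.68 without WT replicate 1, and met the thresholds in the latter case. Reln fell to 0.03 without WT replicate 3.

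**Figure D2:**
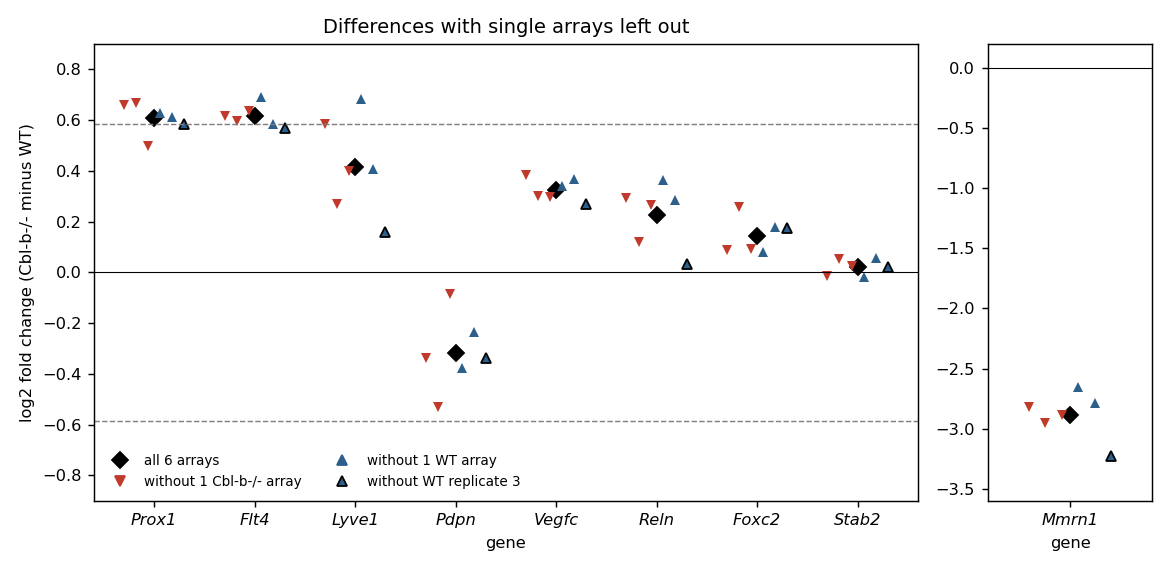
Log2 difference between Cbl-b-/- and WT (vertical axis) of the 9 genes (horizontal axis) with all 6 arrays (diamonds) and with 1 array left out (triangles pointing down for a Cbl-b-/- array, up for a WT array, black-edged for WT replicate 3); Mmrn1 has an axis of its own, and dashed lines mark 1.5-fold. Prox1 and Flt4 straddle the upper line, and Mmrn1 stays between −3.23 and −2.65.

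Within the WT group, Prox1, Flt4, Lyve1, Mmrn1, Vegfc and Reln were all lowest in replicate 3. That is 6 of the 9 genes, where 38.1% of all rows were lowest in that array among the WT arrays. In Flt4, Lyve1, Mmrn1, Reln and Prox1 the 3 WT arrays fell in 1 order, with replicate 1 highest and replicate 3 lowest. The Prox1 values lay close together, at 5.65, 5.62 and 5.57. Foxc2, Stab2, Pdpn and Vegfc followed other orders. The share of all rows with replicate 1 highest and replicate 3 lowest was not counted. Of the 8 lists of cell type markers, 3 had the same order in their median levels among the WT arrays, with 9.01, 8.42 and 8.10 for macrophages, 8.56, 8.37 and 7.83 for adipocytes and 10.93, 10.57 and 9.95 for skeletal muscle. The part of hair follicle, macrophage, fat or muscle content in these values was not tested.

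To show the sequence around the starts of the genes whose groups did not overlap, the 250 bases before the start are given for Prox1 (chr1:190170828-190171077, minus strand), Flt4 (chr11:49609429-49609678, plus strand), Vegfc (chr8:54077282-54077531, plus strand) and Mmrn1 (chr6:60944067-60944316, plus strand), from RefSeq on GRCm38.p6. Capitals mark GGAA and its reverse complement TTCC, the core that ETS factors of endothelial cells recognize.
Prox1: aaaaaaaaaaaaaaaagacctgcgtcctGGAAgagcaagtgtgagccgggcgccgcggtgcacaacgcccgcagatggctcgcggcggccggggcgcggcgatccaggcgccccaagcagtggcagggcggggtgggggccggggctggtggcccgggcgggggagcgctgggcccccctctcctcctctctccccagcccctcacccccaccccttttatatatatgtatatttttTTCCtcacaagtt
Flt4: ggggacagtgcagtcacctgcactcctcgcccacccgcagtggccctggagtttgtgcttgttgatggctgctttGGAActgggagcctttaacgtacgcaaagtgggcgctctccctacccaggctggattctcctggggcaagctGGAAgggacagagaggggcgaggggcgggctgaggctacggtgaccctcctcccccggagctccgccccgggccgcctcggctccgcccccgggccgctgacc
Vegfc: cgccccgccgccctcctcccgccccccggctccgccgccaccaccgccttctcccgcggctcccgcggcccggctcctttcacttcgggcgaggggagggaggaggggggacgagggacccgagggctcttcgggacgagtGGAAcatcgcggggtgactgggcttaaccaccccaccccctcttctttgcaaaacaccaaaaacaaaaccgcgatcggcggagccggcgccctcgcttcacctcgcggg
Mmrn1: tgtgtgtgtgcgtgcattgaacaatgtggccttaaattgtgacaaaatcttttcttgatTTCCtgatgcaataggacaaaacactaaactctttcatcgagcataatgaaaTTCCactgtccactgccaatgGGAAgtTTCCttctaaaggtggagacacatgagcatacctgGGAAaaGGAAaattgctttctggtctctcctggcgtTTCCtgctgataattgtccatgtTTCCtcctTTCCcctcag

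The window of Mmrn1 holds 9 such cores, a number reached by 0.505% of 32851 RefSeq windows of the same length, and those of Prox1, Flt4 and Vegfc hold 2, 2 and 1. Among members whose groups overlapped, the windows of Stab2, Pdpn and Reln hold 6, 3 and 2, and 8.69% of all windows hold as many as Stab2. At least 1 core is found in 93.4% of all windows. The GC box GGGCGG, read on both strands, was found 2 times for Prox1, 3 times for Flt4 and 2 times for Vegfc, and in 32.7% of all windows, with 0 matches for Mmrn1. Among members whose groups overlapped, it was found 6 times for Reln and 0 times for Pdpn and Stab2. Prox1 alone of the 4 holds the TATA box letters TATAAA, on either strand, which 12.4% of all windows hold, and the GATA letters AGATAA, found in 9.99% of windows, are in none of the 4. The GC content was 64.8% for Prox1, 68.4% for Flt4, 71.6% for Vegfc and 42.4% for Mmrn1. Such matches describe the letters only.

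Outside the 9 genes, 71 further genes of lymphatic biology were listed, of which 68 were measured. None of the 68 met the study's thresholds in limma or in the per-row test of the study's methods. At an unadjusted p under 0.05 limma gave 3, all higher in Cbl-b-/- skin, and the methods' test gave 2. The lowest adjusted p from limma was 0.717. The median log2 difference was 0.08 with 41 above 0 (60.3%), beside a median of 0.02 and 55.8% above 0 over all rows. The 3 with an unadjusted p under 0.05, named after their values were seen, were Gata2, Svep1 and Dab1.

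Among 15 genes of VEGF-C processing and the other VEGF ligands and receptors, 12 lay above 0, with a median log2 difference of 0.20. Svep1, a matrix protein needed for lymphatic remodelling, differed the most in this list, with 10.12, 9.93 and 9.81 in Cbl-b-/- and 9.77, 9.65 and 9.26 in WT skin. Its groups did not overlap, and its log2 difference was 0.39 (SE 0.16, adjusted p = 0.749 from limma). Ccbe1, the cofactor that lets ADAMTS3 activate VEGF-C, stood at 0.31 (SE 0.16, adjusted p = 0.759 from limma). Kdr (VEGFR-2), the other receptor for processed VEGF-C, stood at 0.23 (SE 0.14), and Vegfd, the second ligand of VEGFR-3, at 0.25 (SE 0.30).

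Of 9 measured transcription factors that act beside or upstream of PROX1, 7 lay above 0 with a median of 0.21. Gata2, a regulator of lymphatic valves, measured 7.22, 7.35 and 7.59 in Cbl-b-/- and 7.08, 6.98 and 6.93 in WT skin. Its groups did not overlap, with a log2 difference of 0.39 (SE 0.12, adjusted p = 0.717 from limma). Sox18 stood at 0.32 (SE 0.17) and Nr2f2 at 0.26 (SE 0.17), with overlapping groups, and Foxc1, a relative of Foxc2, had the largest difference of the list at −0.46 (SE 0.23, adjusted p = 0.755 from limma). Without Cbl-b-/- replicate 1, Foxc1 met the thresholds as lower (−0.63).

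In 18 measured genes of lymphatic valves and vessel maturation the median log2 difference was −0.02, with 8 above 0. The largest was that of Tie1, an orphan receptor of the angiopoietin system, at 0.32 (SE 0.21, adjusted p = 0.788 from limma). In 9 measured genes of chemokine scavenging, adrenomedullin signaling and leukocyte traffic the median was −0.06, with 3 above 0. Ackr2, a scavenging receptor for inflammatory chemokines on skin lymphatics, measured 7.71, 7.38 and 7.51 in Cbl-b-/- and 7.36, 7.38 and 6.63 in WT skin, where WT replicate 3 lay far below the rest. Its log2 difference was 0.41 (SE 0.22, adjusted p = 0.764 from limma).

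Among 17 binding partners and relatives of the 9 proteins the median log2 difference was 0.10, with 11 above 0. Stab1, the relative of Stab2 that macrophages also carry, had the largest at 0.44 (SE 0.26, adjusted p = 0.780 from limma), and without WT replicate 1 it met the thresholds as higher (0.66). Dab1, the intracellular adaptor of the reelin pathway, stood at 0.32 (SE 0.10, adjusted p = 0.742 from limma), at levels of 5.46 in Cbl-b-/- and 5.14 in WT skin near the background reference. The hyaluronan synthase gene Has3 stood at −0.14 (SE 0.60) and met the thresholds as lower without Cbl-b-/- replicate 2 (−0.83). Mmrn2, the closest relative of Mmrn1 and a product of blood vessels, stood at 0.10 (SE 0.20, adjusted p = 0.930 from limma), and Emilin1, of the same family, at 0.07 (SE 0.12, adjusted p = 0.925 from limma).

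**Figure D3:**
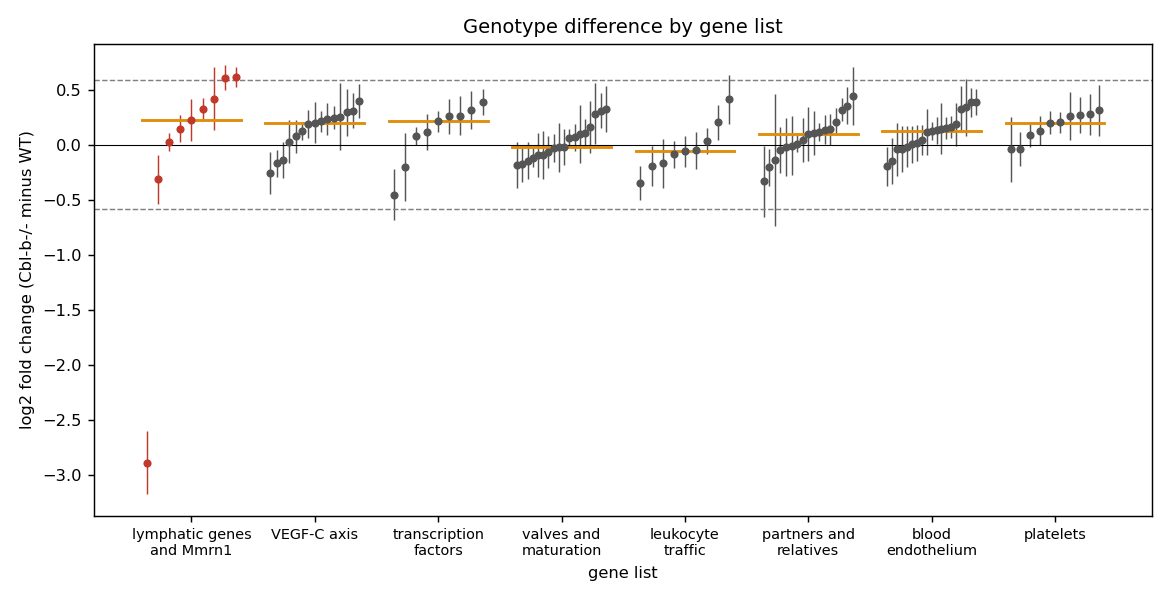
Log2 difference between Cbl-b-/- and WT (vertical axis, 3 arrays each) of the 9 genes and of the genes in 7 further lists (horizontal axis, ordered by size within a list); points are limma estimates with their SE, orange bars are list medians, and dashed lines mark 1.5-fold. Outside the 9 genes every estimate lies between the dashed lines, and Mmrn1 at −2.89 stands far below all others drawn.

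Endothelium at large was followed with 19 measured blood and pan-endothelial markers. Their median log2 difference was 0.12, with 14 above 0 and 0 meeting the thresholds in limma, and 2, Cldn5 and Egfl7, had an unadjusted p under 0.05. Cldn5, a tight junction claudin of endothelium, stood at 0.39 (SE 0.12, adjusted p = 0.723 from limma) and Egfl7, a secreted endothelial protein, at 0.39 (SE 0.13, adjusted p = 0.742 from limma). The general endothelial genes Pecam1 (0.14, SE 0.23) and Cdh5 (−0.02, SE 0.19) overlapped between the genotypes. Of platelet and megakaryocyte markers, the other known source of multimerin 1, 10 were measured and 0 met the thresholds, with 0 at an unadjusted p under 0.05 in limma. Their median log2 difference was 0.20, with 8 above 0, and the median level lay between 6.27 and 6.54 in Cbl-b-/- and between 6.28 and 6.45 in WT skin. Pf4, the platelet factor 4 gene, stood at 0.26 (SE 0.22).

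Markers of the other tissue in the sample were counted in the same way. The median log2 differences were −0.06 for 14 macrophage markers, −0.01 for 11 of fibroblasts and 0.12 for 11 of keratinocytes, with 0 meeting the thresholds in each. For 24 hair follicle markers the median was −0.35, with 23 below 0 and 0 meeting the thresholds. The median level of this list was 5.65, 6.42 and 7.06 in Cbl-b-/- and 5.41, 5.56 and 8.99 in WT arrays. Only WT replicate 3 lay above the Cbl-b-/- arrays, and the other WT arrays lay below all of them. Among 10 adipocyte markers 1 met the thresholds (Aqp7, 1.02, SE 0.42), and among 12 of skeletal muscle also 1 (Myh2, 0.85, SE 0.28), both higher in Cbl-b-/- skin. Over the 111 measured markers of all 8 lists, limma gave 4 with an unadjusted p under 0.05, while the methods' test gave 1 and placed none past the thresholds. The list medians were 0.34 for adipocytes and −0.25 for muscle. The part of these tissues in the differences of Prox1 and Flt4 was not tested.

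**Figure D4:**
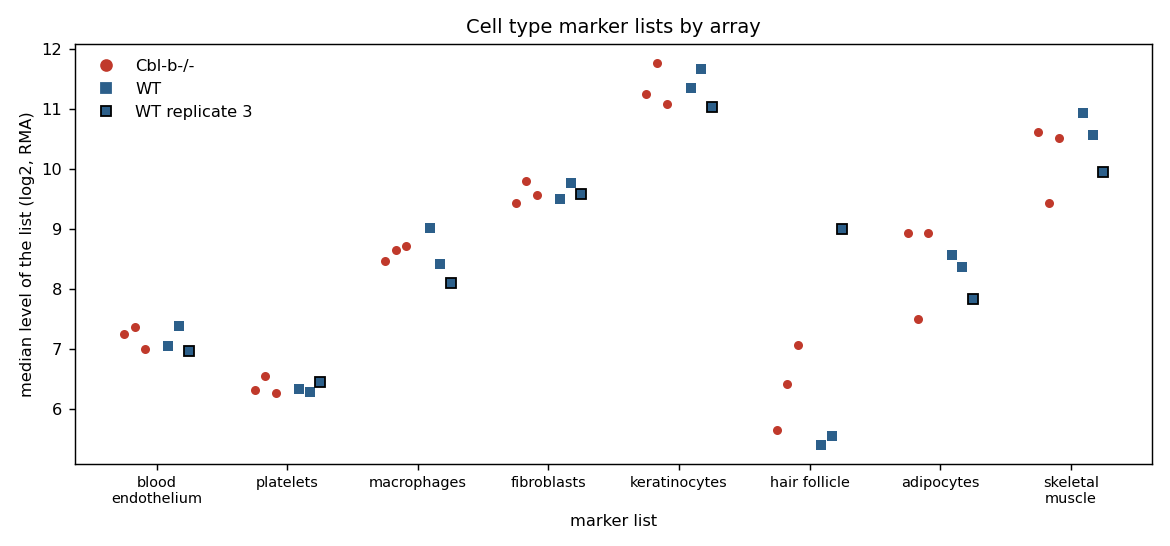
Median log2 level (vertical axis) of 8 lists of cell type markers (horizontal axis) in each Cbl-b-/- (circles) and WT (squares) array, with WT replicate 3 edged in black and replicates 1 to 3 from left to right. The hair follicle list stands at 8.99 in WT replicate 3, and the endothelial and platelet lists overlap between the genotypes.

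Mmrn1 was also set beside its chromosomal neighbours. In the RefSeq order of chromosome 6, the 10 nearest measured genes on each side ran from −0.43 to 0.44 in their log2 difference, with a median of 0.00, 10 above and 10 below 0. None of the 20 met the study's thresholds by either test. At an unadjusted p under 0.05 limma gave 2 and the methods' test 3, and the adjusted p from limma lay between 0.716 and 0.985. The nearest measured gene after Mmrn1, Ccser1, measured 5.76, 6.01 and 6.18 in Cbl-b-/- and 6.15, 6.43 and 6.52 in WT skin. Its groups overlapped slightly, and its log2 difference was −0.38 (SE 0.15, adjusted p = 0.749 from limma). The nearest on the other side, the non-coding gene A530053G22Rik, lay below the background reference in all 6 arrays. So did Gm5570, Nap1l5, Vmn1r30, Vmn1r29, Atoh1, Gm8479, Qrfprl and 4930544G11Rik. A loss in Cbl-b-/- skin could not show in these rows, and the statements on the 20 genes are limited by that. The other gene with an unadjusted p under 0.05 was Tnip3, an inhibitor of NF-κB signaling, at −0.43 (SE 0.13, adjusted p = 0.716 from limma). Fam13a met the thresholds as higher without Cbl-b-/- replicate 2 (0.69).

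**Figure D5:**
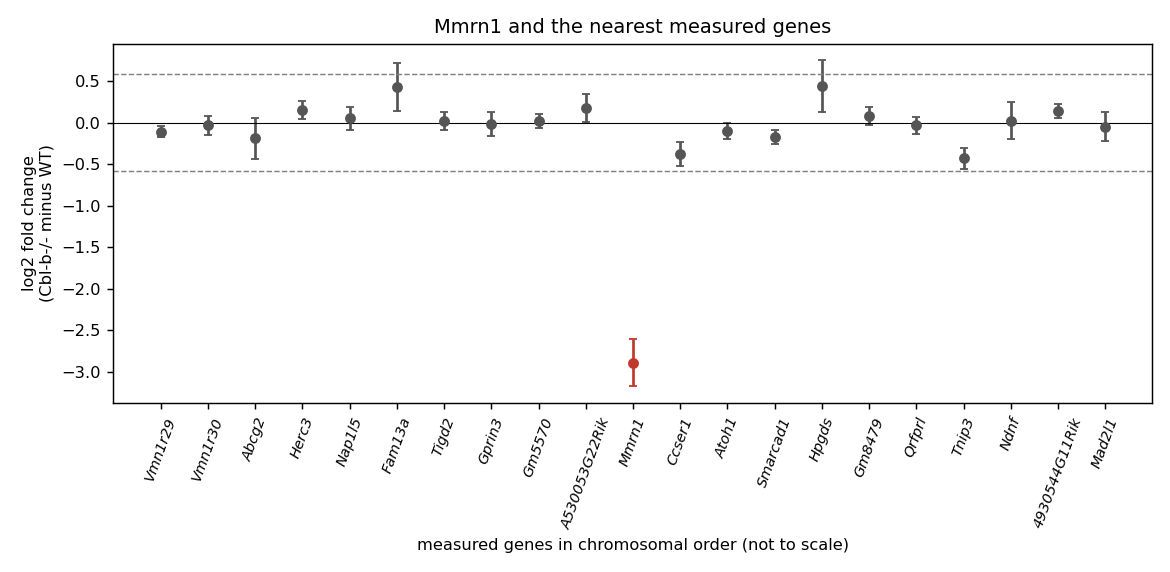
Log2 difference between Cbl-b-/- and WT (vertical axis, limma estimate with SE, 3 arrays each) of Mmrn1 (red) and the 10 nearest measured genes on each side of it (grey), in chromosomal order but not to scale (horizontal axis); dashed lines mark 1.5-fold. Mmrn1 stands at −2.89, and its neighbours lie between −0.43 and 0.44. Several neighbours, named in the text, were below the background reference in both genotypes and could not show a loss.

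As background, BL6 substrains differ at this locus: C57BL/6JOlaHsd mice carry a natural deletion that removes Mmrn1. At another locus, C57BL/6J mice carry a separate deletion within Nnt, the gene of the mitochondrial transhydrogenase. Nnt measured 8.17, 7.64 and 8.20 in Cbl-b-/- and 6.87, 6.71 and 6.79 in WT skin, so that it too did not overlap between the genotypes. Nnt was named after its values were seen. A difference in substrain and the loss of Cbl-b cannot be told apart with these 6 arrays.

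The genes most like Mmrn1, Flt4 and Prox1 over the 6 arrays were sought among 12359 rows with 1 symbol and a mean at or above the median of all rows. Likeness is Pearson's r over 6 arrays, which form 2 genotypes of 3, and is given as a description. The highest r among 12359 rows over so few arrays are large through the search itself, and are not read as a link between genes. For Mmrn1 the 5 nearest were Dubr, Vma21, Mt2, Cdc123 and Hspe1 (r from 0.982 to 0.992). Dubr, a non-coding RNA gene on the same chromosome as Cblb, stood at −0.94 (SE 0.08), and the other 4 differed by 0.30 or less on the log2 scale. For Flt4 they were Arhgap1, Zfp688, Scarf1, Atp10d and Gorasp1 (r from 0.977 to 0.995). Atp10d had the largest difference of these 5, at 1.015 (SE 0.099), and Scarf1, a scavenger receptor of endothelial cells, stood at 0.27 (SE 0.08). For Prox1 they were Cnppd1, Mir540, Sgsm2, Orai1 and Smpd1 (r from 0.981 to 0.999), with log2 differences from 0.12 to 0.31. Prox1, Mmrn1, Vegfc and Stab2 have means under that median and were not candidates themselves.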

How the data were processed

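RNA of dorsal skin from 3 Cbl-b-/- and 3 WT mice, grouped by the submitters' labels, was measured on 6 arrays. The authors deposited log2 values made by RMA (background correction, quantile normalization and median polish per transcript cluster) in Partek Genomics Suite, version 6.5 per the submitters' processing notes. The genome build is not given in the sources used here. Of 35556 rows, 21789 carry 1 gene symbol in the platform annotation, 1621 several and 12146 none. Genotypes were compared with limma 3.58.1 (R 4.3.3) on the deposited values without a block, with Benjamini-Hochberg adjustment over all rows. limma was tested on simulated data. Where a gene had several rows, that with the highest mean was used. The 9 genes, the lists and the comparisons were chosen with earlier results of these data known. Named are the 9, Cblb, in each pathway list the gene with the largest difference (none met the thresholds), the nearest neighbours of Mmrn1 and the 5 genes most like Mmrn1, Flt4 and Prox1. Other genes were named for their role or after their values were seen. A further neighbour of Mmrn1 was not analysed here. Alternatives were the methods' one-way ANOVA, cyclic loess, a filter on dim rows, a mean-dependent prior, a replicate block, the mean over rows of a gene and each array left out. Precision is limited by the number of arrays. The study's methods call the replicates biological.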

Additional observations from a re-analysis of the deposited data

How the results depend on the processing

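Over all rows, 434 met the study's thresholds, and the count was 267 with the methods' test, 268 without rows under the background reference in both groups and 428 to 790 with each array left out, the highest without Cbl-b-/- replicate 2. Of the 9 genes 3 met them, and 1 to 4 with each array left out: 1 (Mmrn1) without WT replicate 3 and 4 without WT replicate 1, where Lyve1 joined. Among other lymphatic genes and among the neighbours of Mmrn1 the count was 0, and 0 to 1 with each array left out (Foxc1, Has3 and Stab1 among the former, Fam13a among the latter). The log2 differences ran from 0.50 to 0.67 for Prox1, 0.57 to 0.69 for Flt4, 0.16 to 0.68 for Lyve1, −0.53 to −0.08 for Pdpn, −3.23 to −2.65 for Mmrn1, 0.27 to 0.38 for Vegfc, 0.03 to 0.36 for Reln, 0.08 to 0.26 for Foxc2 and −0.02 to 0.06 for Stab2. Stab2 also turned sign after cyclic loess (−0.04). The cause of these shifts was not tested.

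Arrays of the 2 genotypes share replicate numbers. Deviations from the group means correlated at 0.233, 0.0925 and 0.247 for same-numbered arrays, and 5 of 6 arrays correlated best with their own number, a hint of pairing that the labels do not state. The numbers were to be taken as pairs only with every such correlation over 0.1, and 1 of the 3 fell short. Cbl-b-/- replicate 1 also correlated at 0.232 with WT replicate 2, nearly as high as with its own number. With the replicate block 453 rows met the thresholds, and the same 3 of the 9 genes. Low signal limits Prox1, Vegfc and Stab2, whose WT means lay within 0.27 of the background reference.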
